A study of Mus musculus with 8 samples.

Results

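The genes described here encode enzymes that cut, protect or crosslink the extracellular matrix: matrix metalloproteinases (Mmp), their tissue inhibitors (Timp), the ADAMTS proteases, the ADAMTS-like glycoproteins (Adamtsl) and the lysyl oxidases (Lox, Loxl). They were chosen by symbol, as every gene of these 5 families in the deposited count table. Of 56 genes matched by name among 25078, 48 had at least 10 counts summed over the 8 libraries and are the members. They comprise 18 Mmp, 4 Timp, 16 Adamts, 5 Adamtsl and 5 Lox family genes. The 2 members nearest to that minimum were Timp4 and Adamts8 with 15 summed counts each, and the nearest gene left out was Mmp10 with 4. Mmp1a and Mmp1b had 0 counts, which allows up to 0.0182 CPM over the 8 libraries together (3 counts, counting error only).

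RNA came from livers of male C57/BL6 mice kept for 25 weeks on a diet rich in fat, fructose and cholesterol, which all 8 animals received. The 3 livers here called het-labelled carry the genotype label Midn hemizygotes and Het in their titles, and come from mice with 1 copy of Midn knocked out globally. The 5 reference livers are labelled wild type. The stated aim concerns midnolin in nonalcoholic fatty liver disease, and neither age nor litter is given. Most homozygous knockout embryos died, according to the submitters, so the model keeps 1 copy of Midn. Counts assigned to genes summed to 17508221 to 24916239 in the het-labelled libraries and to 18687680 to 21064473 in the wild-type libraries. Midn itself did not separate the labels, at 50.4 ± 10.7 CPM (counts per library total, scaled by TMM) in the het-labelled livers (SD, n = 3) and 50.2 ± 18.8 CPM in wild-type ones (SD, n = 5; edgeR adjusted p = 0.994). Which exons were removed is not stated, so directions below are those of the libraries labelled heterozygous. Over all genes the libraries divided across the labels. The first principal component of log2 CPM (48.9% of the variance) was 42.7, −10.45 and 51.9 in the het-labelled libraries, against −43.15, −27.6, −71.8, 30.6 and 27.9 in wild-type libraries 1 to 5. TMM factors were above 1 in the libraries with a negative value, het-labelled 2 and wild-type 1, 2 and 3, and below 1 in the others. Hepatocyte markers, all 14 of them detected, summed to 77267 to 121501 CPM in the het-labelled libraries and 66055 to 88237 CPM in the wild-type ones.

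Matrix metalloproteinases are zinc enzymes made as inactive precursors, and each TIMP blocks the active site of many of them. In an injured liver, activated stellate cells and portal fibroblasts lay down collagen and elastic fibres, lysyl oxidases crosslink these, and macrophages and injured duct epithelium release proteases that take the matrix apart again. ADAMTS proteases trim procollagens, proteoglycans and clotting proteins, while ADAMTS-like proteins lack the protease domain and bind microfibrils.

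Most members had lower mean transcript levels in the het-labelled livers, but the differences between livers of 1 genotype were as large as those between genotypes, and no member passed the test. Of the 48 members, 43 passed the filter on low counts and were tested by edgeR's quasi-likelihood test with Benjamini-Hochberg adjustment over all 14438 genes tested. None of the 43 had an adjusted p under 0.05, against 0% of all tested genes, and DESeq2 also called 0 of 42, against 0.528% of genes lower and 0.694% higher. At an unadjusted p under 0.05, 1 of the 43 (Adamts6) was lower, against 5.43% of all tested genes, and 0 were higher, against 10.3%. No tested member had every het-labelled liver above every wild-type liver, against 7.54% of all tested genes. The log2 fold change was below 0 for 36 of the 43 members (83.7%), against 49.6% of all tested genes. Its median was −0.68 over these members and 0.00 over all tested genes. Measured liver by liver, the median deviation of the tested members from the wild-type mean was −0.66 and −0.83 on the log2 scale in het-labelled libraries 1 and 3, and 0.08 in het-labelled library 2. Single wild-type livers were not measured this way. Wild-type livers 4 and 5 were both below the other wild-type livers for 25 of the 43 members (58.1%), against 20.9% of all tested genes. The 43 passed a filter on counts and share libraries, so these shares describe them and are no test of a list.

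**Figure D1:**
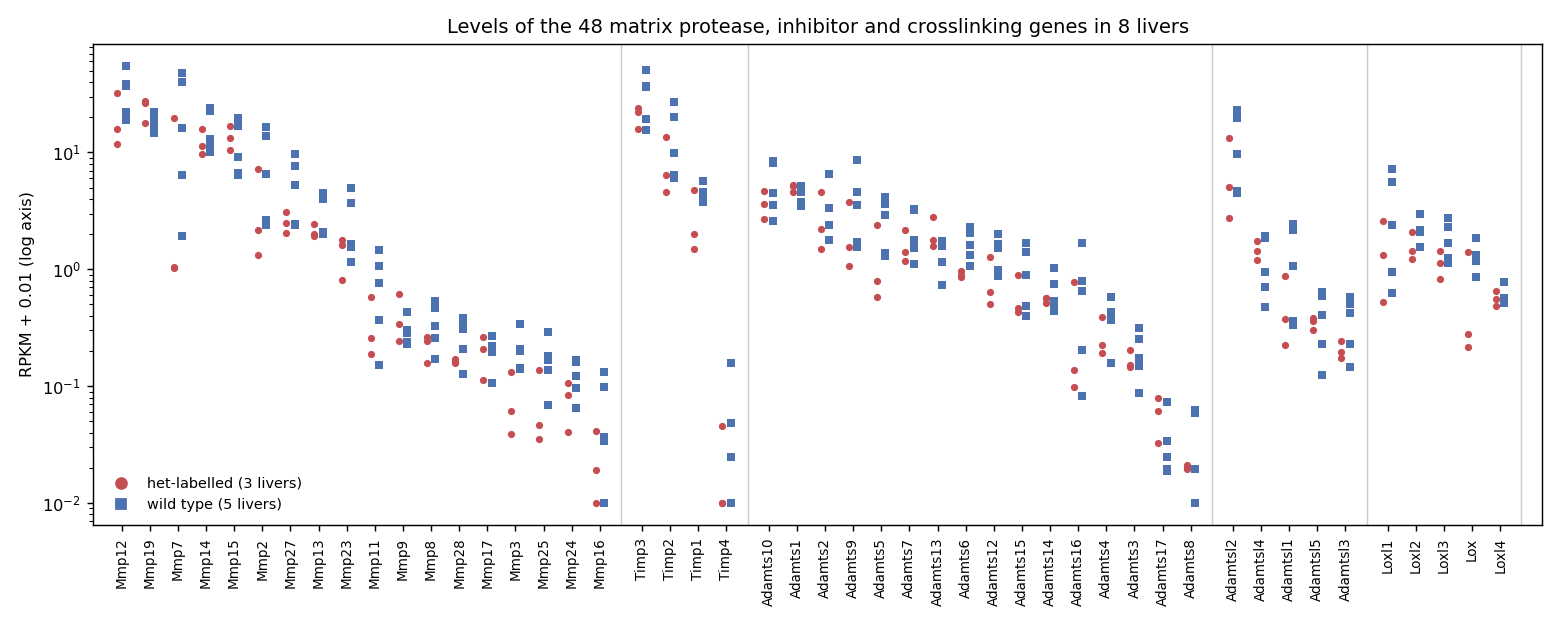
RPKM (reads scaled by exon length and a library constant) of each of the 48 members, grouped by family and ordered by mean level. The axis is logarithmic, after adding 0.01. Circles are the 3 het-labelled livers and squares the 5 wild-type livers. Mmp12 and Timp3 have the highest means, and most genes' circles and squares overlap.

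By RPKM, the scale on which genes of different length can be compared, Mmp12 had the highest mean level over the 8 livers (29.0 RPKM), followed by Timp3 (27.7), Mmp19 (20.4), Mmp7 (16.8), Mmp14 (14.7), Mmp15 (12.4), Timp2 (11.7), Adamtsl2 (10.3), Mmp2 (6.56) and Adamts10 (4.74). Each gene's range over the 8 livers overlapped that of the next in this order. Within each of the 8 livers, though, Timp2 was above Adamtsl2 and Adamtsl2 above Mmp2. Between the other neighbours the order changed from liver to liver. Loxl1 led the lysyl oxidases at 2.64 RPKM, and Timp1 stood at 3.85 RPKM. Summed over the members of a family, Mmp transcripts made up 74.1, 118.7 and 71.7 RPKM in the het-labelled livers and 99.9 to 147 RPKM in the wild-type livers. Timp transcripts summed to 30.5, 42.4 and 22.026 RPKM in the het-labelled livers and to 26.0 to 83.8 RPKM in the wild-type livers. The ratio of the Timp sum to the Mmp sum was 0.411, 0.357 and 0.307 in the het-labelled livers, inside the 0.260 to 0.569 of the wild-type livers.

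The inhibitors are described first. Timp1, the soluble inhibitor that activated stellate cells release, had 1.84, 4.36 and 1.38 CPM in het-labelled libraries 1 to 3, against 3.82, 3.55, 4.93, 3.90 and 4.21 CPM in wild-type libraries 1 to 5. Het-labelled libraries 1 and 3 lay below every wild-type library, and het-labelled library 2 lay among them. The wild-type values were close together, with the highest 1.39 times the lowest. Timp1 differed by −0.70 on the log2 scale (SE 0.37, 95% interval −1.52 to 0.13; edgeR adjusted p = 0.367). Permuting the labels of its CPM values exactly, over 56 assignments and two-sided, gave p = 0.179, where 0.0357 is the smallest possible. With 1 library left out the difference of Timp1 ran from −1.33 without het-labelled library 2 (edgeR adjusted p = 0.0755, in a range of 0.0755 to 0.837 over its alternatives) to −0.51 without het-labelled library 1 and −0.40 without het-labelled library 3.

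Timp2, which also helps Mmp14 to activate Mmp2, had 24.2, 51.0 and 17.4 CPM in het-labelled libraries 1 to 3, against 73.0, 38.1, 95.9, 22.5 and 23.5 CPM in wild-type libraries 1 to 5. The groups overlapped, since wild-type libraries 4 and 5 were as low as het-labelled library 1 (log2 fold change −0.72, SE 0.56). Leaving out het-labelled library 2 gave −1.27 for Timp2, leaving out het-labelled library 3 gave −0.42, and leaving out wild-type library 3 gave −0.38. Timp3, the inhibitor that stays bound to the matrix, had 108, 117 and 77.8 CPM in the het-labelled livers, against 174, 179.6, 235, 74.8 and 93.1 CPM in wild-type livers 1 to 5 (−0.58, SE 0.37). The same wild-type livers, 4 and 5, were again the low ones for Timp3. Timp4 was close to absent, with 0, 2 and 0 counts in the het-labelled libraries and 1, 9, 3, 0 and 0 in the wild-type ones, and did not enter the test. Each of the inhibitors Timp1, Timp3 and Timp4 lies across from a synapsin gene on the opposite strand. These overlaps were read from gene starts and ends, and whether exons overlap was not examined. Whether counting used strand is not stated in the sources used here. Whether such pairs share reads is therefore not known. Over the 8 libraries Syn1 held 33.7% as many counts as Timp1, Syn3 4.21% as many as Timp3 and Syn2 740% as many as Timp4 (111 counts against 15).

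**Figure D2:**
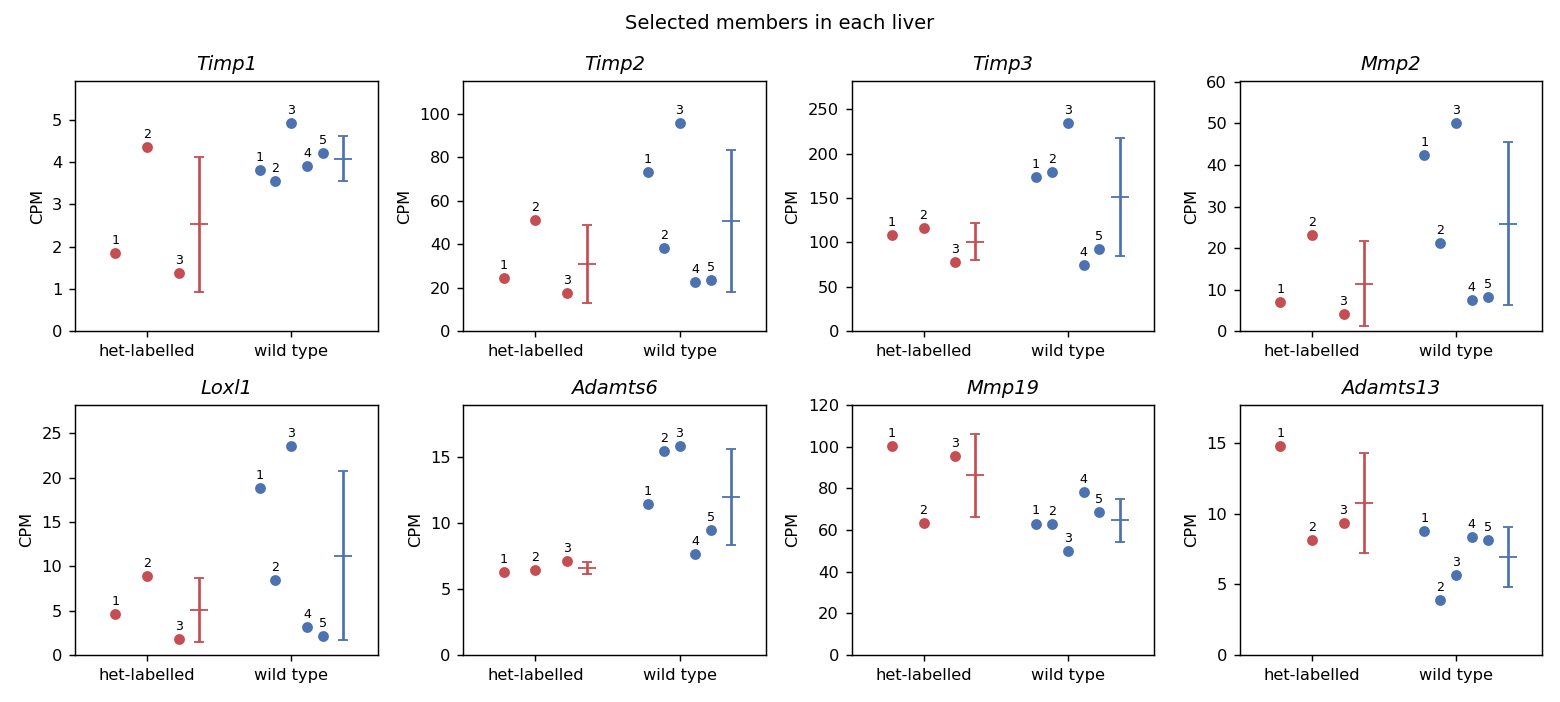
CPM of 8 members in each liver, with het-labelled livers left and wild-type livers right, library numbers above the points, and the mean ± SD of each group beside them. For Timp1 het-labelled library 2 lies among the wild-type libraries, for Timp2, Mmp2 and Loxl1 wild-type libraries 1 and 3 are highest, and only Adamts6 has no overlap between the groups shown.

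Among the membrane-bound and gelatin-cleaving proteases, Mmp2, the gelatinase of fibroblasts and stellate cells, had 6.91, 23.1 and 4.19 CPM in the het-labelled livers, against 42.3, 21.2, 50.2, 7.41 and 8.31 CPM in wild-type livers 1 to 5. Het-labelled library 2 and wild-type library 2 were nearly equal, and wild-type libraries 4 and 5 were close to het-labelled library 1. Mmp2 differed by −1.19 with a wide 95% interval, −2.94 to 0.56 (edgeR adjusted p = 0.446). It was −2.21 without het-labelled library 2 and −0.79 without het-labelled library 3, the ends of its range with 1 library left out. Mmp14, the membrane-anchored activator of Mmp2, had 44.9, 62.2 and 38.4 CPM in the het-labelled livers, against 86.3, 52.7, 89.8, 43.4 and 39.1 CPM in the wild-type livers (−0.36, SE 0.32; −0.57 to −0.21 with 1 library left out). Mmp15, another membrane-type protease, had 59.6, 75.4 and 47.1 CPM, against 73.4, 30.7, 83.1, 40.3 and 28.1 CPM in the wild-type livers (0.25, SE 0.38; 0.06 to 0.45 with 1 library left out). The Mmp15 values of the het-labelled livers all fell inside the wild-type range. Mmp9, the gelatinase of leukocytes, was at 0.783, 1.99 and 1.10 CPM in the het-labelled livers and at 0.714 to 1.31 CPM in the wild-type livers, so that het-labelled library 2 had the highest value.

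Mmp19, a secreted protease, was the most abundant member with a positive difference. It had 100.2, 63.4 and 95.4 CPM in the het-labelled livers, against 63.1, 63.1, 50.02, 78.3 and 68.8 CPM in the wild-type livers. Het-labelled livers 1 and 3 lay above every wild-type liver, and het-labelled liver 2 among them. The difference of Mmp19 was 0.42 (SE 0.19, 95% interval −0.02 to 0.86; edgeR adjusted p = 0.331; exact permutation p = 0.107), and 0.29 to 0.60 with 1 library left out. Of the 5 tested membrane-type genes 3 had a negative difference, as did 3 of the 4 tested collagen-cleaving and gelatin-cleaving genes and all 3 tested genes of the stromelysin, matrilysin and macrophage elastase group. For all tested genes the share with a negative difference was 49.6%. None of the genes in these groups had an unadjusted p under 0.05, against 5.43% of all tested genes lower and 10.3% higher.

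Mmp7 and Mmp12 lie in a single cluster of Mmp genes on chromosome 9. Mmp12, the elastase of macrophages, had 46.1, 124 and 61.8 CPM in the het-labelled livers, against 82.8, 146, 68.9, 145 and 209 CPM in wild-type livers 1 to 5. Het-labelled livers 1 and 3 were below every wild-type liver, and het-labelled liver 2 was above wild-type livers 1 and 3 (log2 fold change −0.75, SE 0.43; edgeR adjusted p = 0.400). With 1 library left out it ran from −1.27 (het-labelled library 2 absent) to −0.51 (wild-type library 5 absent) and −0.48 (het-labelled library 1 absent). Mmp7, the matrilysin made by injured epithelium including bile ducts, had 1.198, 22.9 and 1.19 CPM in the het-labelled livers, against 17.98, 56.5, 44.1, 2.20 and 7.28 CPM in the wild-type livers. Its highest wild-type value was 25.7 times its lowest. Mmp7 differed by −1.62 with a 95% interval from −4.37 to 1.14. It was −4.41 without het-labelled library 2, −1.09 without either of the other het-labelled libraries and −1.14 when wild-type library 2 was left out.

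In the deposited mm10 coordinates the cluster's members run from Mmp13 (chr9:7272514-7283333) over Mmp12 (chr9:7344397-7360461), Mmp3 (chr9:7445822-7455974), Mmp8 (chr9:7558429-7568486) and Mmp27 (chr9:7571396-7581885) to Mmp7 (chr9:7692090-7699585). All of these are on the plus strand and are called neighbours here. Mmp1a, Mmp1b, Mmp10 and Mmp20, left out for low counts, lie between them, with Mmp1b on the minus strand. The promoter windows of 4 of these neighbours and of Timp1 are shown. The cluster's genes divided into unlike patterns over the same livers, and whether the windows bear on that was not tested. Each window holds 250 bases before and 50 after the RefSeq start (GRCm38.p6), which matched the deposited gene start for all 30 members with a window in the table. Capitals mark matches, on either strand, of the AP-1 motif TGANTCA, the TATA box TATAAA and the GC box GGGCGG.
Mmp13 (chr9:7272264-7272563, plus strand): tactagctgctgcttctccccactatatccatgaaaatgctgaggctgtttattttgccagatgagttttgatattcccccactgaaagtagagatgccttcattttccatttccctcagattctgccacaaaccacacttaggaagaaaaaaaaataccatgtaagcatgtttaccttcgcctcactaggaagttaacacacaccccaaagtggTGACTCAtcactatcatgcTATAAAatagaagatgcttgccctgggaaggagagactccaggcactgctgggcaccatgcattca
Mmp12 (chr9:7344147-7344446, plus strand): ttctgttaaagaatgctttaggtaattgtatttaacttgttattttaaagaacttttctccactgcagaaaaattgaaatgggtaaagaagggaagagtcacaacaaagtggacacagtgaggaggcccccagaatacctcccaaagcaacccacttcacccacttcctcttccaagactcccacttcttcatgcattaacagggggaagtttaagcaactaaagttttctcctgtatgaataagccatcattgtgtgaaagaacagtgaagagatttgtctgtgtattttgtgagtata
Mmp27 (chr9:7571146-7571445, plus strand): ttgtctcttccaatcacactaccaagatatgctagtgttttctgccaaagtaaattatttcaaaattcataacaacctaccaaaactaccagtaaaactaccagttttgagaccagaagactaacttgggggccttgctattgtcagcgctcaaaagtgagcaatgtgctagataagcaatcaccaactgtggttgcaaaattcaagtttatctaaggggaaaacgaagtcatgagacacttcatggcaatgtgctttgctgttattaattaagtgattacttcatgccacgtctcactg
Mmp7 (chr9:7691840-7692139, plus strand): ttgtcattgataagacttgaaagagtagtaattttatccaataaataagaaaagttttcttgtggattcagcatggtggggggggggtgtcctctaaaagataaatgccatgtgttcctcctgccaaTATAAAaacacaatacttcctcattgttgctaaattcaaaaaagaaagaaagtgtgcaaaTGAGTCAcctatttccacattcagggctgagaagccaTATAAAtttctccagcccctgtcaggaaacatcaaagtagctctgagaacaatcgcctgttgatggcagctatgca
Timp1 (chrX:20869916-20870215, plus strand): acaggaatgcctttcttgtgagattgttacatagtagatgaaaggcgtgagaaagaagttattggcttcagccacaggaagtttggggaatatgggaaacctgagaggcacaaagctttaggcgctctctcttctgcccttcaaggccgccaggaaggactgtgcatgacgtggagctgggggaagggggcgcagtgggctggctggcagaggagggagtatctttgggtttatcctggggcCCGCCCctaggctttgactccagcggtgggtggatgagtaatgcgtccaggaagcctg
The AP-1 letters occurred in 3 of the 30 member windows (10%), those of Mmp7, Mmp13 and Mmp3, against 7.81% of 32851 windows of all genes. The TATA letters occurred in 6 (20%), against 13.6%, and the GC box letters in 20 (66.7%), against 35.7%. No match of one motif overlapped a match of another in these 30 windows. The windows of Mmp12 and Mmp27 held no exact match of the 3 motifs, and that of Timp1 matched the GC box alone. Near-matches, such as tgagtaa beside the AP-1 letters in the Timp1 window, were not counted. A match is a run of letters and not a measured site.

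Across the livers, neighbours in the cluster did not move as 1 block. Mmp13, the main collagenase of rodents, had 5.39, 5.49 and 6.77 CPM in the het-labelled livers, against 5.33, 11.3, 5.45, 10.8 and 12.2 CPM in wild-type livers 1 to 5. Mmp27 had 4.52, 6.83 and 5.48 CPM in the het-labelled livers, against 5.20, 11.95, 5.01, 16.6 and 21.1 CPM in the wild-type livers. Over all livers the differences were −0.61 for Mmp13 (SE 0.32; edgeR adjusted p = 0.369) and −1.09 for Mmp27 (SE 0.50; adjusted p = 0.323). In both genes wild-type livers 2, 4 and 5 stood apart above the other 5 livers, and wild-type livers 1 and 3 were at or near the level of the het-labelled ones. Mmp12 and Mmp8, the collagenase of neutrophils, likewise had wild-type livers 2, 4 and 5 above wild-type livers 1 and 3. These 4 genes were the only tested members with that order (9.3% of 43). It was shown by 31.1% of all tested genes, so the order itself is common in these libraries. For Mmp8 it rested on 9, 16, 16, 24 and 19 counts in wild-type libraries 1 to 5. Wild-type libraries 2 and 3 thus differed for Mmp8 by scaling alone. Mmp7 was low in wild-type livers 4 and 5 and high in 1, 2 and 3. Mmp3, a stromelysin, was too rare to test, at 5, 1 and 2 counts in the het-labelled libraries and 8, 5, 9, 11 and 4 in the wild-type ones.

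**Figure D3:**
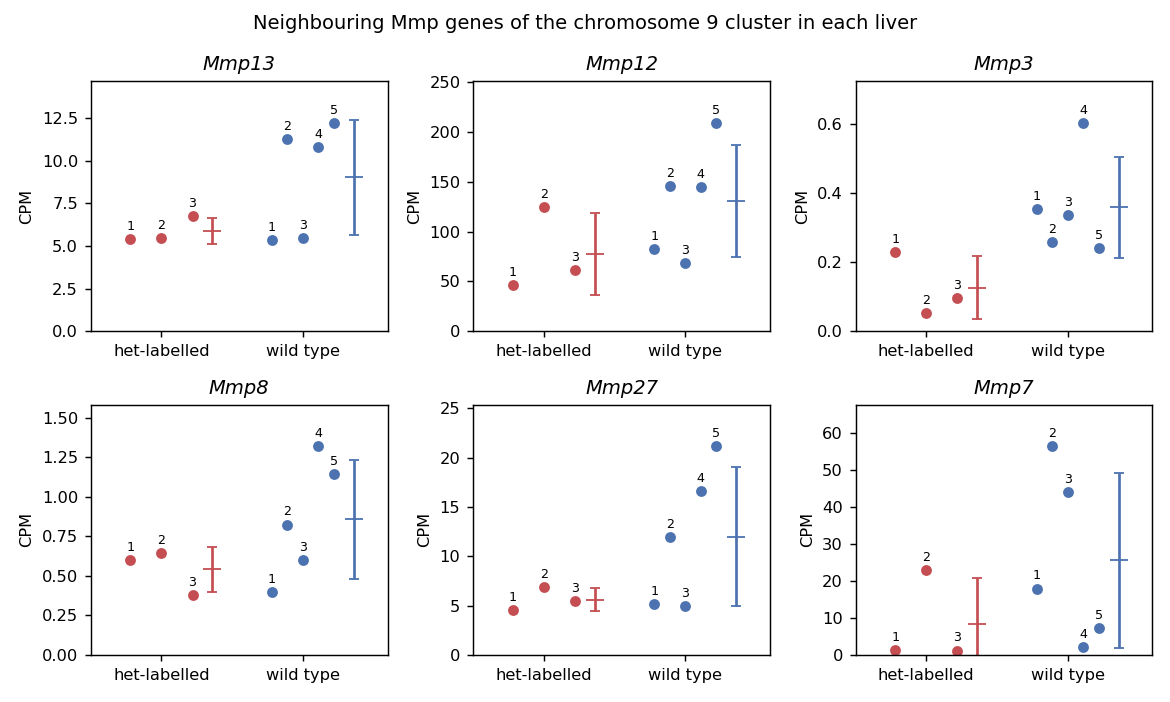
CPM of 6 neighbouring Mmp genes of the chromosome 9 cluster, in chromosomal order, for het-labelled livers (left) and wild-type livers (right), with library numbers above the points and the mean ± SD of each group beside them (the axis starts at 0, which hides the lower end of 1 bar of Mmp7). Mmp13, Mmp12, Mmp8 and Mmp27 have wild-type libraries 2, 4 and 5 above 1 and 3, while Mmp7 is high in wild-type libraries 1, 2 and 3.

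The same wild-type livers stood apart in Rpph1, the RNA component of ribonuclease P. Its share of all counts was 0.229 to 0.399% in the het-labelled libraries, 0.673 to 1.06% in the wild-type libraries 2, 4 and 5 and 0.304 to 0.331% in the other two. Its part in the member differences was not tested. Set against wild-type libraries 2, 4 and 5 alone, 4 of 41 tested members passed in edgeR, against 18.9% of all tested genes. These were Mmp27 (log2 fold change −1.61, SE 0.25), Mmp13 (−1.01, SE 0.17), Mmp15 (0.83, SE 0.21) and Adamtsl4 (1.02, SE 0.29). The values of Mmp13 and Mmp27 in these 3 livers were already seen to be the highest, so this comparison restates that order and is no test of it. The same livers were the lowest wild-type ones for Mmp15 (30.7, 40.3 and 28.1 CPM) and Adamtsl4 (2.01, 3.84 and 2.89 CPM). Wild-type livers 1 and 3 had 73.4 and 83.1 CPM of Mmp15 and 7.42 and 7.58 CPM of Adamtsl4. The comparison is thus no test of Mmp15 or Adamtsl4 either. The differences of Timp2, Mmp14, Adamts10, Adamtsl2 and Loxl1, negative over all 5 wild-type livers, were between 0.01 and 0.10 here. Set against wild-type libraries 1 and 3 alone, 0 of 43 members passed in edgeR, against 0.143% of all tested genes. By unadjusted p under 0.05, 24 members were then lower (55.8% of 43, against 14.9% of all tested genes) and 1, Mmp19, was higher (against 16.7%), and the differences were 0.08 for Mmp27, 0.06 for Mmp13, 0.05 for Mmp8, −0.03 for Mmp12, −0.43 for Mmp15 and −0.36 for Adamtsl4. Against the other 3 wild-type libraries 5 of 41 were lower (12.2%, against 18.7%) and 2 higher (against 18.8%). Both comparisons share the same het-labelled livers and were chosen with the Rpph1 values known. Wild-type liver 3 was the highest wild-type one for 30 of the 43 tested members (69.8%), against 26.4% of all tested genes. The count of 24 lower members against wild-type libraries 1 and 3 follows in part from that order and is no test of it.

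Of the ADAMTS proteases, 12 of the 14 tested had a negative difference, against 49.6% of all tested genes, and 1 was lower at an unadjusted p under 0.05, against 5.43%. That gene was Adamts6, a secreted protease needed for heart development in mice, with 6.27, 6.46 and 7.15 CPM in the het-labelled livers, against 11.5, 15.5, 15.8, 7.63 and 9.51 CPM in the wild-type livers. Every het-labelled liver lay below every wild-type liver, which held for 2.32% of all tested genes. Adamts6 differed by −0.86 (SE 0.26, 95% interval −1.45 to −0.27; unadjusted p = 0.00918, edgeR adjusted p = 0.259, DESeq2 adjusted p = 0.0694). The exact permutation p was 0.0357, the smallest possible. With any 1 library left out its fold change stayed between −0.98 and −0.78, and the unadjusted p between 0.00231 and 0.0346.

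Adamts10, which acts on fibrillin microfibrils, had the highest mean RPKM of the ADAMTS proteases, with 16.5, 21.3 and 12.2 CPM in the het-labelled livers, against 35.4, 20.7, 35.8, 15.7 and 11.4 CPM in the wild-type livers (−0.52, SE 0.39; −0.73 to −0.33 with 1 library left out). The groups overlapped, with wild-type livers 1 and 3 above the rest. The proteoglycan-cleaving Adamts5 had 6.68, 20.02 and 4.81 CPM in the het-labelled livers and 23.6, 31.1, 32.8, 10.6 and 11.4 CPM in the wild-type livers (−1.07, SE 0.56; −1.92 to −0.71 with 1 library left out). Its neighbour on chromosome 16, Adamts1, which also cleaves proteoglycans, had 26.9, 23.2 and 26.4 CPM in the het-labelled livers and 22.8, 19.7, 24.8, 23.0 and 17.5 CPM in the wild-type livers (0.24, SE 0.15). Adamts5 (chr16:85858157-85901125) and Adamts1 (chr16:85793828-85803113) lie on the same strand, and Adamts1 varied 1.42-fold over the wild-type livers against 3.09-fold for Adamts5. Adamts13, which cleaves von Willebrand factor and is made by stellate cells, had 14.7, 8.13 and 9.34 CPM in the het-labelled livers, against 8.79, 3.86, 5.64, 8.35 and 8.13 CPM in the wild-type livers (0.63, SE 0.30; edgeR adjusted p = 0.342; 0.33 to 0.80 with 1 library left out). Het-labelled libraries 1 and 3 were above every wild-type library for Adamts13, and het-labelled library 2 lay among them. The procollagen N-propeptidases Adamts2, Adamts3 and Adamts14 had differences of −0.54, −0.20 and −0.20. None of them had an unadjusted p under 0.05, against 5.43% of all tested genes lower and 10.3% higher. Adamts16 varied most among the wild-type livers of the tested genes in this family, 22.1-fold, at 4.09, 3.50, 8.48, 0.384 and 1.02 CPM, against 0.691, 4.09 and 0.476 CPM in the het-labelled livers.

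Adamtsl2, which binds fibrillin and the latent TGF-beta complex, led the ADAMTS-like genes with 18.99, 49.3 and 10.2 CPM in the het-labelled livers, against 71.5, 37.1, 82.1, 17.3 and 16.6 CPM in the wild-type livers (−0.78, SE 0.67), and its difference ran from −1.61 without het-labelled library 2 to −0.39 without het-labelled library 3. Wild-type livers 4 and 5 were lower than het-labelled livers 1 and 2. Adamtsl1 was likewise lower in wild-type livers 4 and 5 than in het-labelled livers 1 and 2, with 3.04, 7.05 and 1.76 CPM in the het-labelled livers and 17.1, 8.86, 18.6, 2.64 and 2.83 CPM in the wild-type livers (−1.35, SE 0.75). Of the 5 ADAMTS-like genes 4 had a negative difference, against 49.6% of all tested genes, the exception being Adamtsl4 (0.35, SE 0.43). None had an unadjusted p under 0.05, against 5.43% of all tested genes lower and 10.3% higher.

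The crosslinking enzymes all had negative differences, against 49.6% of all tested genes, from −1.15 for Loxl1 to −0.02 for Loxl4. The sign of Loxl4 changed with 3 of the libraries left out. Of the 5 enzymes, 0 had an unadjusted p under 0.05, against 5.43% of all tested genes lower and 10.3% higher. Loxl1, the lysyl oxidase of elastic fibres, had 4.56, 8.93 and 1.81 CPM in the het-labelled livers, against 18.8, 8.45, 23.5, 3.19 and 2.11 CPM in the wild-type livers. It spread 11.2-fold over the wild-type livers, and its 95% interval of the log2 fold change ran from −3.01 to 0.71 (edgeR adjusted p = 0.485). With 1 library left out its difference ran from −1.81 (het-labelled library 2 absent) to −0.74 (het-labelled library 3 absent) and −0.72 (wild-type library 3 absent). Lox, the founding enzyme of the family, had 1.06, 7.16 and 1.38 CPM in the het-labelled livers, against 6.17, 9.69, 6.42, 5.88 and 4.33 CPM in the wild-type livers. As with Timp1, het-labelled livers 1 and 3 lay below every wild-type liver and het-labelled liver 2 among them. Lox differed by −1.03 (SE 0.59; edgeR adjusted p = 0.403) over all livers. It was −2.40 without het-labelled library 2 (edgeR adjusted p = 0.0755, in a range of 0.0755 to 0.843 over its alternatives), −0.67 without het-labelled library 3 and −0.61 without het-labelled library 1. Loxl2 (−0.35, SE 0.26) and Loxl3 (−0.67, SE 0.33) overlapped between the groups. Loxl3 overlaps Htra2 on the opposite strand, which held 149% as many counts.

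**Figure D4:**
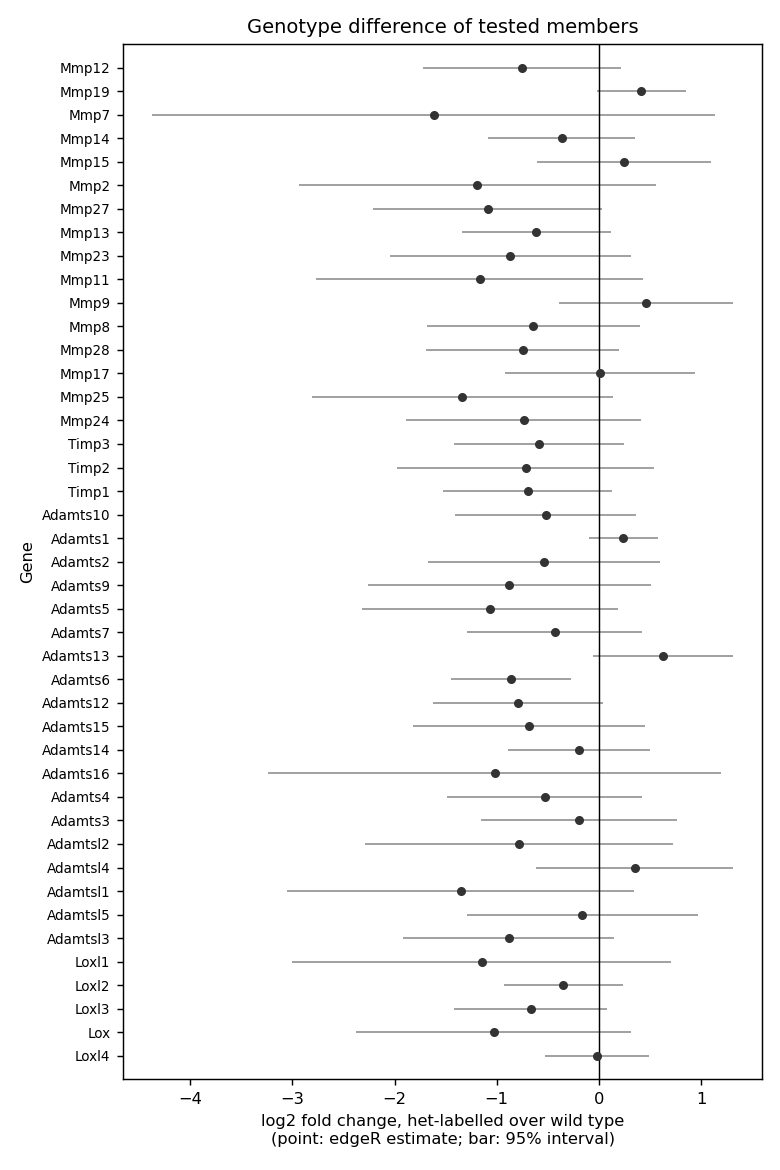
log2 fold change of the het-labelled over the wild-type livers for each of the 43 tested members (points, edgeR estimates) with 95% intervals (bars), by family. Of the points 36 lie below 0, and only the interval of Adamts6 leaves out 0.

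The spread of many members within each genotype divided the livers as the first principal component of all genes did. Wild-type livers 4 and 5 were both below wild-type livers 1, 2 and 3 for 25 of the 43 tested members (58.1%), against 20.9% of all tested genes, and het-labelled liver 2 was the highest of its group for 32 (74.4%), against 37.3%. Both held together for 21 members (48.8%), against 12.4% of all tested genes. These members include Timp2, Timp3, Mmp2, Mmp7, Mmp14, Adamts2, Adamts5, Adamts9, Adamts10, Adamtsl2, Lox, Loxl1 and Loxl3. The orders were chosen after the values were seen and are given without a test. The highest wild-type value was 3.14 times the lowest for the median tested member, against 1.81 times for the median of all tested genes.

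**Figure D5:**
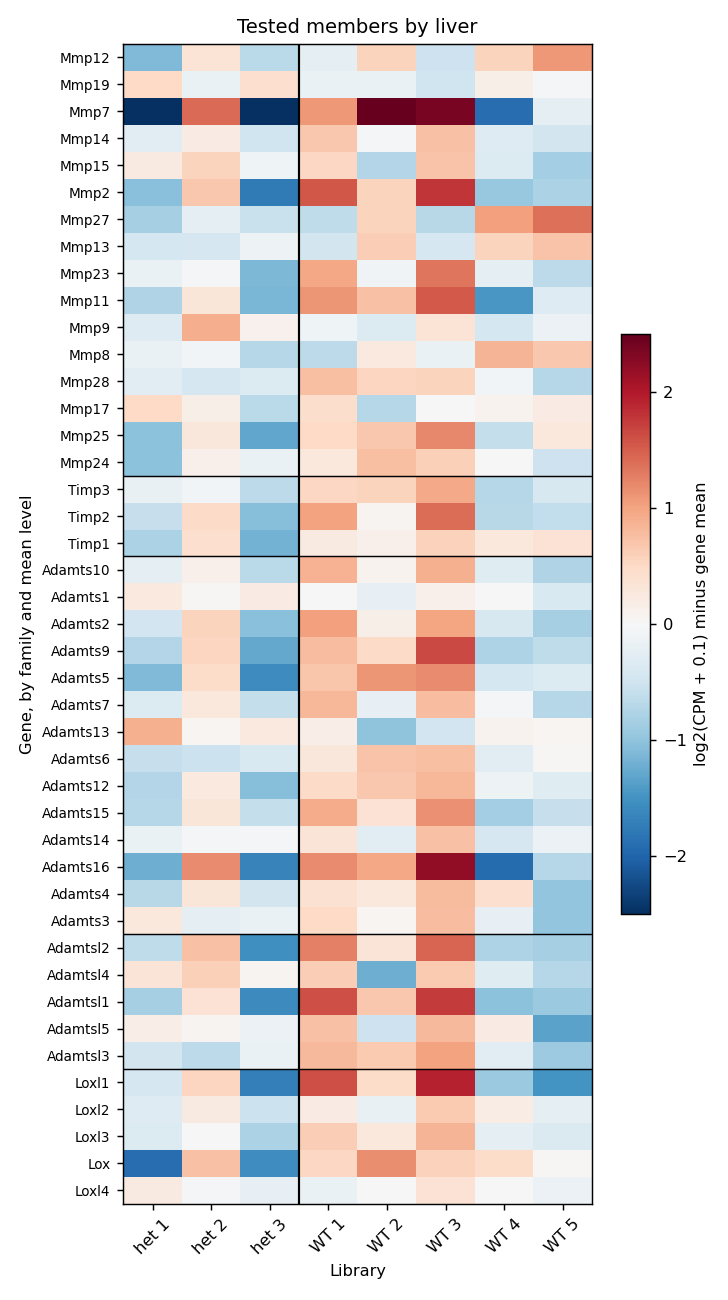
log2(CPM + 0.1) of the 43 tested members minus each gene's mean over 8 livers (red above, blue below; colours end at 2.5 in either direction), with het-labelled livers left of the line and wild-type livers right, and families separated by horizontal lines. Wild-type liver 3 is the highest wild-type liver for 30 of the 43 genes and het-labelled liver 2 the highest het-labelled one for 32, while Mmp12, Mmp13, Mmp8 and Mmp27 are high in wild-type livers 2, 4 and 5.

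Markers of other cell types moved over the livers too, and their part in these differences was not tested. In bulk liver, fewer cells of a type and less RNA per cell cannot be told apart. A list's score here is its tested genes' mean deviation, in log2 CPM, from their own averages over all livers. The bile duct score (10 of 11 markers tested, 0 listed at 0 in every library) was −1.38, 0.77 and −1.44 in the het-labelled livers, against 0.69, 0.91, 1.78, −0.93 and −0.41 in the wild-type livers, the same livers being high as for Mmp7. Their summed level ran from 170 to 806 CPM in the het-labelled livers and from 435 to 992 CPM in the wild-type livers. The macrophage score (17 of 17 tested) was −0.64, 0.20 and −0.52 in the het-labelled livers and −0.07, 0.22, −0.19, 0.37 and 0.63 in the wild-type livers, in which wild-type livers 2, 4 and 5 were highest, as for Mmp12. Macrophage markers summed to 1163 to 1885 CPM in the het-labelled livers and 1673 to 3466 CPM in the wild-type livers. Lpl, lipoprotein lipase, had the smallest p of that list, with 153 ± 68.3 CPM in the het-labelled livers (SD, n = 3) and 357 ± 63.9 CPM in the wild-type livers (SD, n = 5; edgeR adjusted p = 0.259, DESeq2 adjusted p = 0.00778).

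The stellate and myofibroblast score (17 of 17 tested) had a smaller range, −0.09, 0.28 and −0.35 in the het-labelled livers and −0.21 to 0.24 in the wild-type livers, with summed levels of 966 to 1564 CPM in the het-labelled livers and 1253 to 1570 CPM in the wild-type livers. Its members differed in direction. Ecm1, a matrix protein of quiescent stellate cells, had 71.995 ± 22.5 CPM in the het-labelled livers (SD, n = 3) and 33.0 ± 13.0 CPM in the wild-type livers (SD, n = 5), whereas Pdgfra, a growth factor receptor of fibroblasts, had 28.0 ± 14.7 CPM in the het-labelled livers and 58.9 ± 31.7 CPM in the wild-type livers. The mesothelial and portal fibroblast score (9 of 10 tested) was −0.22, 0.39 and −0.93 in the het-labelled livers and −0.21 to 0.79 in the wild-type livers. T and NK cell markers (10 of 12 tested) had scores of −0.67, 0.11 and −0.69 in the het-labelled livers and −0.68 to 0.85 in the wild-type livers. Neutrophil markers, 5 of 10 tested, had scores of −0.06, 0.69 and −0.49 in the het-labelled livers and −0.71 to 0.91 in the wild-type livers, with sums of 9.43 to 27.2 CPM in the het-labelled livers and 8.44 to 54.1 CPM in the wild-type livers. Endothelial markers (12 of 12 tested) had scores of 0.37, −0.09 and 0.34 in the het-labelled livers and −0.33 to 0.03 in the wild-type livers, and hepatocyte markers (13 of 14 tested) 0.52, −0.21 and 0.36 in the het-labelled livers and −0.35 to 0.05 in the wild-type livers. None of these marker genes passed in edgeR, while DESeq2 called Lpl and, of the hepatocyte markers named by rule, Ttr (adjusted p = 0.0477).

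Partners of the members were compared by lists, in which 0 genes passed in edgeR. Elastic fibre genes, which encode elastin and the microfibril and scaffold proteins around it, had a median of −0.75 over the 15 tested, 0 of them with an unadjusted p under 0.05. Their score followed that of Loxl1, at −0.68, 0.51 and −1.24 in the het-labelled livers, against 1.08, 0.37, 1.51, −0.69 and −0.86 in the wild-type livers. Fbn2, a fibrillin, had 1.67 ± 2.57 CPM in the het-labelled livers (SD, n = 3) and 8.56 ± 9.94 CPM in the wild-type livers (SD, n = 5). Fibrillar collagen and collagen maturation genes were mixed, with 1 lower and 4 higher by unadjusted p among 19 tested and a median of −0.16. Col5a3, with the smallest p of this list, had 64.7 ± 22.8 CPM in the het-labelled livers and 35.1 ± 8.47 CPM in the wild-type livers. Col5a2 went the other way, with 28.0 ± 16.2 CPM in the het-labelled livers and 63.5 ± 21.2 CPM in the wild-type livers. Bmp1, the procollagen C-proteinase, had 106 ± 32.0 CPM in the het-labelled livers and 70.0 ± 10.5 CPM in the wild-type livers.

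In the plasminogen system, which activates several Mmp precursors, 9 genes were tested, of which 2 were lower and 0 higher by unadjusted p under 0.05 (median 0.18). The plasminogen activators Plau and Plat were these 2, with log2 fold changes of −0.74 (SE 0.26) and −1.25 (SE 0.46), while Plg, plasminogen itself, differed by 0.49 (SE 0.23). Among 16 other protease partners 3 were lower and 2 higher by that measure (median −0.22), including the sheddase genes Adam17 (−0.43, SE 0.17) and Adam9 (0.42, SE 0.15) and the precursor-cleaving enzyme Furin (0.74, SE 0.27). Of 16 TGF-beta signalling genes 1 was lower, the receptor Tgfbr1 at 101 ± 25.0 CPM in the het-labelled livers (SD, n = 3) and 164 ± 48.8 CPM in the wild-type livers (SD, n = 5), and 0 higher (median −0.06). Of 13 tested AP-1 and IL-6 family genes 1 was lower and 2 higher (median 0.21). These were Osmr, the oncostatin M receptor (−0.80, SE 0.29), Il6ra (0.86, SE 0.27) and Fosb (1.505, SE 0.62). For all tested genes the corresponding shares were 5.43% lower and 10.3% higher.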

How the data were processed

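RNA of 8 livers was sequenced. Per the labels, tissue was kept in RNAlater and libraries were made with a KAPA mRNA HyperPrep kit. The submitters' processing notes name bcl2fastq 2.18.0.12, STAR, HTSeq and the build mm10. Annotation, counting mode and strandedness are not stated in the sources used here. The authors deposited raw counts per gene, and RPKM values, each of which equalled count over exon length over a library constant. That constant was 0.888 to 1.25 times the library's count total, so it is not the plain total. Of the 48 members, 12 overlap another gene from start to end in the deposited coordinates, 9 of them on the opposite strand. Overlap of exons was not examined, so whether these counts include reads of the other gene is not known.

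Counts were filtered with edgeR's filterByExpr (minimum count 10, total 15), scaled by TMM (factors 0.852 to 1.27) and tested with a robust quasi-likelihood fit, two-sided, at an adjusted p of 0.05. SE is the fold change divided by the root of the F statistic. Groups follow the genotype label, and replicate numbers follow accession order. The labels do not say whether the animals share litters, so a p-value speaks only to the spread among these 8 samples. Replicate counts differed beyond sampling noise (chi-square over its degrees of freedom at least 22.9), so each library counted as 1 sample. Unused sample columns numbered 0, and 2 repeated date-like symbols were made unique. Members and lists were chosen with earlier results of these data known. Named are Timp1, Mmp12, Loxl1, members with an unadjusted p under 0.05, the 10 highest by RPKM, the highest of each family, and up to 3 genes per list with the smallest p; other members are named by role, and values of several of these were added after seeing the data. Alternatives were DESeq2, limma-voom, RLE factors or library size only, no filter or a minimum mean of 1 CPM, an edgeR fit without robust estimation, limma on log2(RPKM + 0.1) and log2(RPKM + 1), a threshold of 0.10, and each library left out. Fits against parts of the wild-type group were added after seeing the data. The fits were tested on simulated data. Versions were DESeq2 1.42.0, limma 3.58.1 and edgeR 4.0.16 under R 4.3.3, and matplotlib 3.10.9 under Python 3.11.15.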

Additional observations from a re-analysis of the deposited data

Results flagged for a closer look

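Among the 5 wild-type libraries, 1 member had a library apart from the rest by Dixon's criterion, computed for 43 tested members. Loxl4 stood at 4.07 CPM in wild-type library 3, with a gap to the next library of 0.729 of the group's range. Chance gives about 1 such case in 20 groups.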

How the results depend on the processing

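No paired analysis was possible because the replicate numbers were given in accession order and pair no livers. The number of members passing was 0 in every planned fit, 0 in the reported edgeR fit also at a threshold of 0.10, and 4 against wild-type libraries 2, 4 and 5. The number of all genes passing was 0 except with DESeq2 (176), against wild-type libraries 1 and 3 (21) and against wild-type libraries 2, 4 and 5 (2632). DESeq2 and the fit without a filter gave 48 members a p-value, where the reported fit tested 43. The DESeq2 share of genes lower given next divides by the 14406 genes with an adjusted p but also counts genes without one. Members lower at an unadjusted p under 0.05, 1 as reported, numbered 2 with RLE scaling (6.74% of all genes lower), 3 with library size alone (8.3%), without a filter (5.02%) and on RPKM plus 0.1 (6.72%) or 1 (6.09%), 4 with limma-voom (5.75%), 7 with DESeq2 (9.53%), 24 against wild-type libraries 1 and 3 (14.9%) and 5 against wild-type libraries 2, 4 and 5 (18.7%). With each library left out they numbered 1 to 9: 9 when het-labelled library 2 was dropped (11.1% of all genes lower), 7 for wild-type library 4 (6.07%), 6 for wild-type library 5 (5.46%), 4 for wild-type library 3 (7.46%) and 3 for wild-type library 1 (6.33%). Members higher numbered 2 without het-labelled library 2 (13.4% of all genes higher) and 1 without wild-type library 4 (9.57%). They numbered 0 with any other library left out (3.9 to 11.4%). Against wild-type libraries 1 and 3 there was 1 (16.7%), and against wild-type libraries 2, 4 and 5 there were 2 (18.8%). The median log2 fold change of the tested members was negative in every fit, −0.87 to −0.44 with a library left out, −0.83 with library size alone (all genes −0.18), and −0.10 against wild-type libraries 2, 4 and 5. In that last comparison the differences of Loxl1 (0.10), Adamtsl2 (0.10), Timp2 (0.094), Mmp14 (0.0583) and Adamts10 (0.0137) turned positive, and that of Mmp15 was −0.43 against wild-type libraries 1 and 3. The cause was not tested. Otherwise the 13 members named by rule kept their sign. Of the others, Adamts2 (0.10), Adamts3 (0.26), Adamts7 (0.07), Adamts14 (0.16), Adamts16 (0.04), Adamtsl5 (0.44) and Loxl4 (0.0085) turned positive against wild-type libraries 2, 4 and 5. Mmp8, Mmp13, Mmp27, Adamtsl4 and Mmp17 turned against wild-type libraries 1 and 3 (0.05, 0.06, 0.08, −0.36 and −0.25). Adamtsl5 also turned positive without wild-type library 1 (0.0169) and without wild-type library 3 (0.0245). Mmp17, whose difference was 0.01, changed sign in 6 fits with another scaling or tool. With 0 to 16 counts a library, Mmp3, Mmp16, Timp4, Adamts8 and Adamts17 were too shallow for the filter.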
